A study of Homo sapiens with 2 samples.

Results

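The 7SL RNA genes of chromosome 14 are the loci described here. They are RN7SL1 (CHM13_G0016418) and every other feature of the count tables that starts in the same window of 400000 bases on chromosome 14, has 1 exon entry and is about as long, with 310 bases as the upper limit. Of 28 features with their start in that window, 14 have 1 exon entry and 3 of these lie within the limits of length, so 3 of 63494 features were selected by position and length. RN7SL1 itself was picked from its counts in these libraries, so its levels and ratios, and those of the genes that share its reads, are a description and carry no test. The other members were named RN7SL3 (CHM13_G0016438) and RN7SL2 (CHM13_G0016440) from RefSeq symbols, by matching gene order and gene length along the chromosome. The nearest features of like build outside the window, CHM13_G0016373 before it and CHM13_G0016449 after it, held 1 and 5 counts in the control library and 0 and 1 in the SFB-Ku80 library.

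7SL RNA is the RNA backbone of the signal recognition particle, which binds ribosomes whose nascent chain carries a signal sequence and brings them to the membrane of the endoplasmic reticulum. RNA polymerase III makes it from a few genes, and part of the particle is put together in the nucleolus, the compartment of ribosomal RNA synthesis. The abundant Alu repeats of the human genome and a large number of truncated pseudogenes descend from it, so short reads of 7SL RNA often match several places.

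The study used PAR-CLIP to ask which RNAs the Ku70/80 complex, the DNA end-binding part of DNA-PK, contacts. In this assay a photoreactive nucleoside taken up by the cells is crosslinked by UV light to the protein next to it, and the RNA that copurifies with the protein is sequenced. Both libraries came from HEK293T cells, a human embryonic kidney line with the SV40 large T antigen, which per the labels carried stably either the SFB empty vector or SFB-Ku80, a Ku80 with affinity tags for streptavidin and Flag resin. All cells received 0.1 mM 6SG (6-thioguanosine) overnight and 0.4 J/cm2 of UV at 365 nm, and the RNA was taken through streptavidin resin and then Flag resin. The SFB empty vector library, called the vector library below, therefore holds RNA recovered without a tagged Ku80, not total RNA, and the level of 7SL RNA in the cells was not measured.

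There was 1 library per group, so no difference has a replicate check. The SFB empty vector library held 19775629 counts on features and the SFB-Ku80 library 17892815, of which 19202522 and 14512399 lay outside the 219 annotated 45S pre-rRNA units. Uniquely mapped pairs on features numbered 6062669 and 1443251, which was 20.3% and 6.51% of the read pairs. In SFB-Ku80, 2 other features alone (CHM13_G0023424 and CHM13_G0023426) took 29.6% and 16.4% of the counts. The feature placed as XRCC5, which encodes Ku80, had 1118 counts in the vector library and 43907 in SFB-Ku80, in the direction of the labels, although an expressed vector and the cells' own gene cannot be told apart. Intervals below are 95% counting intervals only. They are too narrow, because both ends of a pair and each place of a multimapping read were counted and no molecular identifiers are stated.

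The 7SL genes held a smaller share of the SFB-Ku80 library than of the vector library. For rRNA the paper multiplied the share of reads by the amount of RNA purified. That amount is not part of the values here, so they do not give how much 7SL RNA was recovered. RN7SL2 was listed at 0 in both libraries, so the sums below are those of RN7SL1 and RN7SL3. In counts, a read placed on both genes was counted at each. The 3 genes held 405584 counts in the vector library and 49134 in SFB-Ku80, which was 2.05% (2.04 to 2.06) and 0.275% (0.272 to 0.277) of all counts on features, a share 7.47-fold lower (7.40 to 7.54). In uniquely mapped pairs they held 78892 and 12936, or 1.30% (1.29 to 1.31) and 0.896% (0.881 to 0.912) of pairs on features, a share 1.45-fold lower (1.43 to 1.48). The direction was the same in both measures, but the size of the difference was not. Outside the 45S units and the 2 top features of SFB-Ku80, the share in counts was 2.77-fold lower (2.74 to 2.79). Relative to the median feature, described below for each gene, RN7SL1 and RN7SL3 were low in SFB-Ku80 by counts and near the median by uniquely mapped pairs.

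RN7SL1 lies at chr14:43784832-43785130 of CHM13 v1.1 on the plus strand, is 299 bases long and overlaps no exon of another feature. It had 320549 counts in the vector library and 36925 in SFB-Ku80, or 16693 and 2544 CPM (counts scaled to 1000000 outside the 45S units). The log2 ratio of SFB-Ku80 to SFB empty vector, on the scale of log2(scaled counts + 1), was -2.71. It had 72200 and 11783 uniquely mapped pairs, or 11928 and 8520 when scaled in the same way, and a log2 ratio of -0.49. RN7SL1 was thus lower in SFB-Ku80 in both measures after scaling.

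RN7SL3 lies at chr14:44058839-44059137 on the minus strand, is also 299 bases long and is likewise free of overlap. It had 85035 counts in the vector library and 12209 in SFB-Ku80, 4428 and 841 CPM, with a log2 ratio of -2.40. Its uniquely mapped pairs were 6692 and 1153, 1106 and 834 when scaled, with a log2 ratio of -0.41. RN7SL3 was the lower of the measured pair at equal length in both libraries, with 284 counts per base in SFB empty vector against 1072 for RN7SL1, and 40.8 against 123 in SFB-Ku80.

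RN7SL2 lies at chr14:44067776-44068075 on the minus strand and is 300 bases long. It was listed at 0 counts and 0 uniquely mapped pairs in both libraries. The whole of it sits inside an exon entry of CHM13_G0016439 on the same strand, from 44067746 to 44068090, and a read that overlapped both features was assigned to neither. The zeros therefore give no level for RN7SL2. CHM13_G0016439 itself held 5 and 2 counts. Pairs set aside as ambiguous made up 5.76% of all vector read pairs and 2.66% of all SFB-Ku80 read pairs, and how many of them came from RN7SL2 cannot be read from the tables.

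**Figure D1:**
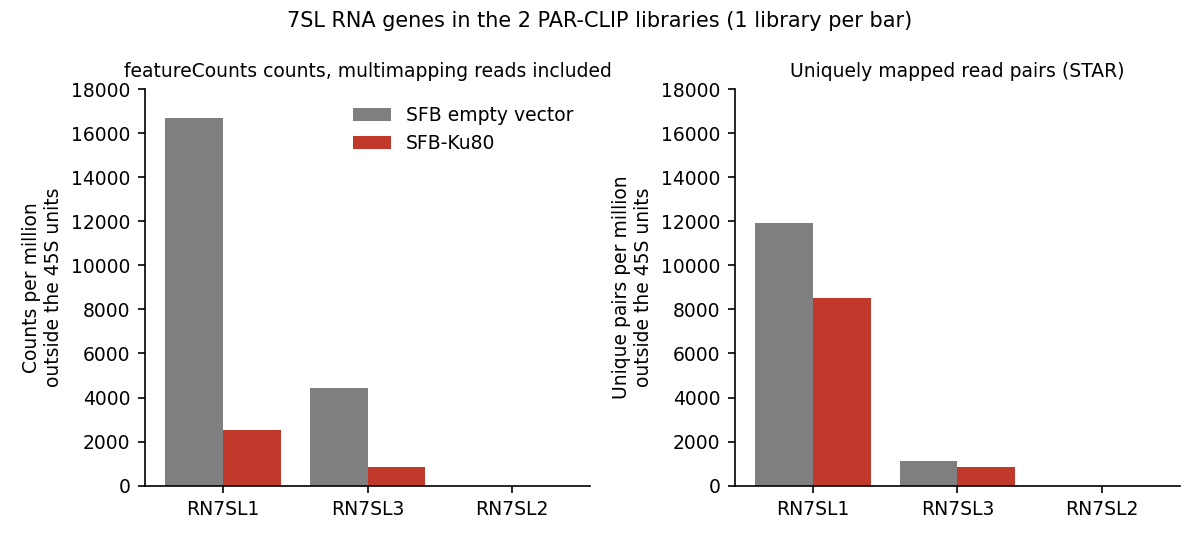
Counts (left) and uniquely mapped pairs (right) scaled to 1000000 outside the 45S units, on the vertical axes, for the 3 genes, with 1 library per bar and no error bars because there are no replicates. In counts RN7SL1 stood at 16693 in SFB empty vector against 2544 in SFB-Ku80, in uniquely mapped pairs at 11928 against 8520, and RN7SL2 was at 0 throughout.

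Ratios were also set against the median feature, because it was not at 0. Among 17478 features that reached 100 counts over both libraries the median log2 ratio was -1.04, and among 10205 with at least 100 uniquely mapped pairs it was -0.31. RN7SL1 was at -1.67 from the median in counts and RN7SL3 at -1.35. Both of the measured genes were at least 2-fold lower than the median feature, as were 25% of all features tested, and 26.7% were at least 2-fold higher. In uniquely mapped pairs RN7SL1 was at -0.18 from the median and RN7SL3 at -0.10. None of the 2 measured genes was 2-fold away in these pairs, where 22.6% of the features were at least 2-fold higher and 19% at least 2-fold lower.

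In counts, 2207 of the 17478 features (12.6%) had a lower ratio than RN7SL1 and 3141 (18%) a lower one than RN7SL3. Uniquely mapped pairs put 4496 of 10205 features (44.1%) below RN7SL1 and 4741 (46.5%) below RN7SL3. Among the more heavily counted features the picture in counts changed too. Of 175 features with at least 10000 counts, 89 (50.9%) lay below RN7SL1 and 92 (52.6%) below RN7SL3, since the median of that group was itself at -1.79 from the median feature. With at least 10000 uniquely mapped pairs there were 39 features, of which 19 (48.7%) lay below RN7SL1. The measured 7SL genes were therefore in the lower part of all features in counts, but in the middle of those with at least 10000 counts.

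**Figure D2:**
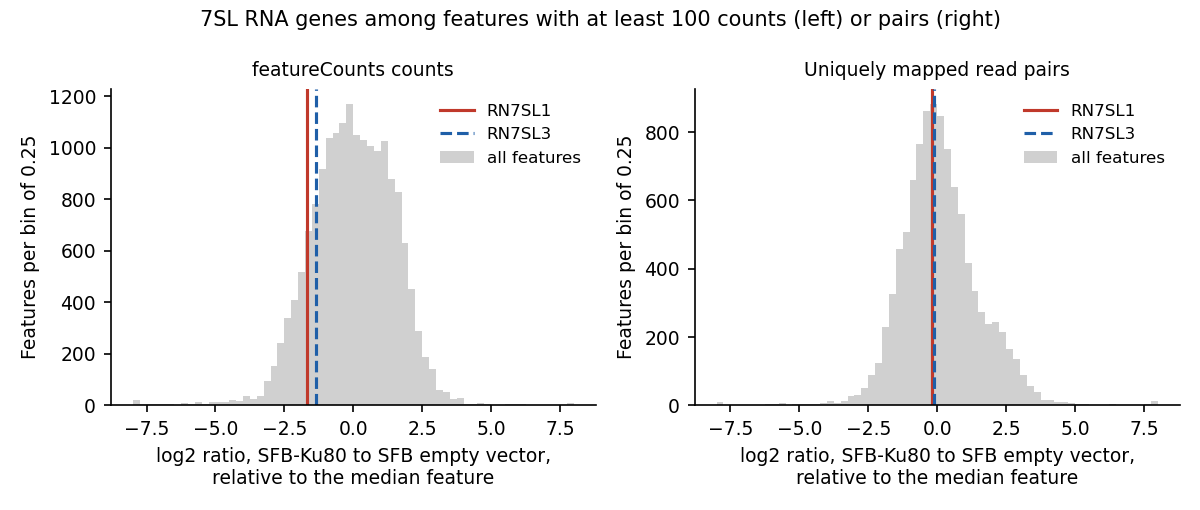
Number of features per bin of 0.25 (vertical axis) by log2 ratio relative to the median feature (horizontal axis, values beyond 8 in the outer bins), for counts (left) and uniquely mapped pairs (right), with lines at RN7SL1 and RN7SL3. The lines stand at -1.67 and -1.35 on the left and at -0.18 and -0.10 on the right, next to the peak of the distribution.

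The ranks of RN7SL1 give the same contrast within each library. By counts RN7SL1 was feature number 3 of SFB empty vector, after the mitochondrial 12S rRNA MT-RNR1 with 635505 counts (93390 in SFB-Ku80) and before LOC124904137 with 294938 (175917 in SFB-Ku80). In SFB-Ku80 it was number 45, after the H/ACA small nucleolar RNA SNORA73B with 42383 counts (43306 in SFB empty vector) and before NSUN3, a gene of an RNA methyltransferase, with 35998 (16990). RN7SL3 went from number 19 to number 118. RN7SL1 thus stood lower in the order of counts of SFB-Ku80.

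By uniquely mapped pairs the order moved less. RN7SL1 was number 4 in SFB empty vector, after NR3C2, the mineralocorticoid receptor gene, with 88480 pairs (10 in SFB-Ku80) and before the unnamed CHM13_G0009554 with 60779 (9214). It was number 13 in SFB-Ku80, after the unnamed LOFF_G0001243 with 12575 pairs (2069 in SFB empty vector) and before KLHDC7B with 10942 (1921). RN7SL3 was number 56 and number 67. Per base of feature length, RN7SL1 was number 3 in the vector library and number 7 in SFB-Ku80 by uniquely mapped pairs, and number 5 and number 18 by counts.

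How far a 7SL gene's counts exceeded its uniquely mapped pairs differed between genes and libraries. RN7SL1 had 4.44 counts per uniquely mapped pair in the vector library and 3.13 in SFB-Ku80, RN7SL3 12.7 and 10.6. The median feature with at least 100 such pairs had 2.24 and 2.51, where 2 is the value of a feature whose pairs all map once with both reads counted. Both genes were above the median feature in each library, and both had more counts per pair in SFB empty vector. The medians of the libraries rest on different sets of features, so they do not show how a given feature moved.

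The counts beyond 2 per uniquely mapped pair show the same. They came to 176149 of the RN7SL1 counts in the vector library (55.0%) and 13359 in SFB-Ku80 (36.2%), a 13.2-fold difference in number, against 72200 and 11783 uniquely mapped pairs. For RN7SL3 they were 71651 (84.3%) and 9903 (81.1%), 7.24-fold apart. For the median feature the share was 10.8% and 20.4%, again over a different set of features in each library. By definition these extra counts are part of the difference between the 2 measures. Before scaling, RN7SL1 was 8.68-fold lower in SFB-Ku80 in counts and 6.13-fold lower in uniquely mapped pairs. The totals used for scaling differed as well, at 19202522 and 14512399 counts against 6052773 and 1382961 uniquely mapped pairs. The log2 ratios of the 2 measures therefore differ by these totals as well as by the extra counts. Why either differed between the libraries was not tested.

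The ratios of the 2 measured genes lay close to each other in uniquely mapped pairs. The log2 ratio of RN7SL1 minus that of RN7SL3 was -0.32 (-0.35 to -0.29) in counts and -0.08 (-0.17 to 0.02) in uniquely mapped pairs. RN7SL1 had 10.8 times the uniquely mapped pairs of RN7SL3 in the vector library and 10.2 times in SFB-Ku80, but 3.77 and 3.02 times its counts. These genes share sequence, so their counts can be in part the same reads and are not independent observations, and the intervals are no test of a difference between them.

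Uniquely mapped pairs of the 7SL genes lay mostly on 1 strand. In the first stranded column, where the first read of a pair has the strand of the gene, RN7SL1 had 5366 pairs in the vector library and 1082 in SFB-Ku80, and in the second stranded column, where the second read does, 68637 and 10813. The first column thus held 7.25% (7.07 to 7.44) and 9.10% (8.59 to 9.63) of its pairs. RN7SL3 had 767 and 147 pairs in the first column and 6114 and 1023 in the second, so that the first held 11.1% (10.4 to 11.9) and 12.6% (10.8 to 14.6).

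The median feature had 17.2% of its pairs in the first column in the vector library and 23.3% in SFB-Ku80, so both genes were more one-sided than that in each library. Of 8794 features of SFB empty vector with at least 100 uniquely mapped pairs, 279 (3.17%) had a lower share than RN7SL1, and in SFB-Ku80 218 of 2111 (10.3%) had. The first column was the smaller one for both genes in both libraries, with a higher share in SFB-Ku80 for RN7SL1. The median was higher there too, but over a different set of features.

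**Figure D3:**
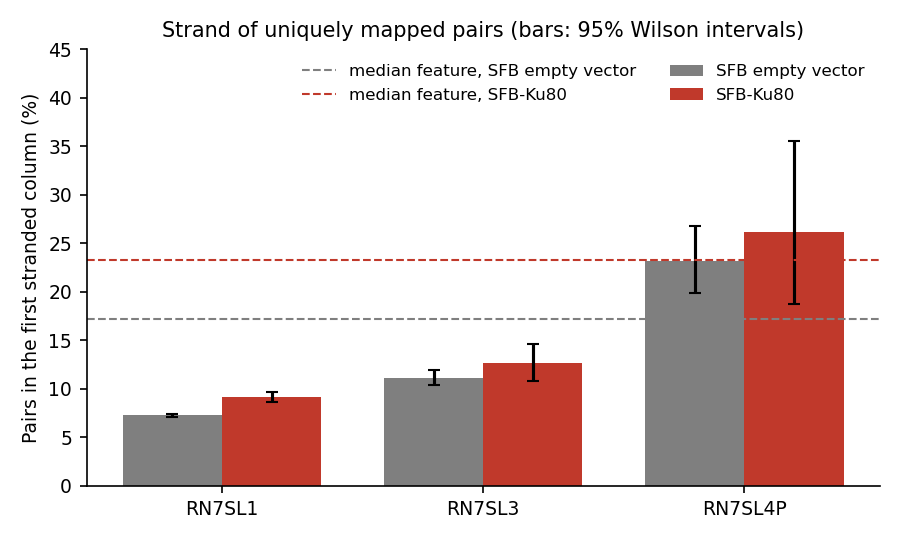
Percent of uniquely mapped pairs in the first stranded column (vertical axis) for RN7SL1, RN7SL3 and the feature placed as the pseudogene RN7SL4P in the 2 libraries, with 95% Wilson intervals as error bars and dashed lines at the median feature of each library. RN7SL1 stood at 7.25% and 9.10% and RN7SL3 at 11.1% and 12.6%, under the medians of 17.2% and 23.3%, while RN7SL4P stood at 23.2% and 26.2%.

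The surroundings of the genes held far fewer reads. RPS29, a gene of a small-subunit ribosomal protein on the opposite strand, encloses RN7SL1 in an intron, 102 bases from its nearest exon. It had 3214 counts in the vector library and 282 in SFB-Ku80 over 9840 bases of exon, at -2.06 from the median feature in counts and at -1.18 in uniquely mapped pairs. Per base this was 0.327 and 0.0287 counts, against 1072 and 123 for RN7SL1. NEMF, whose product acts in ribosome-associated quality control, lies 795 bases from RN7SL3. NEMF had 410 and 126 counts, at -0.25 from the median, and 197 and 56 uniquely mapped pairs, at 0.62, on the other side of it. CHM13_G0016441, 223 bases from RN7SL2 and on the other strand, had 89 and 20 counts, at -0.66.

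Among the 174 other features with at least 10000 counts, those nearest to RN7SL1 in log2 ratio were 3 that the pairing did not name. CHM13_G0016857 had 11689 and 1257 counts, and CHM13_G0037476 had 16848 and 1787, at 0.098 and 0.119 from RN7SL1 on the log2 scale. In uniquely mapped pairs these were at -1.05 and -0.86 from the median feature, where RN7SL1 was at -0.18. A like ratio in counts was thus not a like ratio in uniquely mapped pairs. This is a likeness over 2 libraries only.

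Elsewhere in the genome, 7SL copies held little. RefSeq lists 687 genes with an RN7SL symbol, 632 of which were paired or placed, on 626 features besides the chromosome 14 genes. Among those features, CHM13_G0033939 (0 counts in both libraries) was also paired with SCARNA5, and CHM13_G0049299 (19 and 0 counts) with FABP12P1. The 626 copies held 44793 counts in the vector library and 8571 in SFB-Ku80, and 361 of them had any count. Most of these, 93.2% and 81.8%, lay on CHM13_G0038066 at chr3:15740969-15741263 on the plus strand, with 41757 and 7007 counts. It is called RN7SL4P here, after a 7SL pseudogene, but that name is uncertain, since the feature was only placed between paired neighbours and is 295 bases long against 272 in RefSeq. Of the 632 names, 564 came from the stricter pairing and 68 from such a placing. Of all counts on the 629 genes and copies, RN7SL1 held 71.2% in the vector library and 64.0% in SFB-Ku80, RN7SL3 18.9% and 21.2%, RN7SL4P 9.27% and 12.1%, and the rest 0.674% and 2.71%.

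RN7SL4P had few reads of its own. It had 559 uniquely mapped pairs in the vector library and 103 in SFB-Ku80, and so 74.7 and 68.0 counts per uniquely mapped pair. Its log2 ratio was at -1.13 from the median feature in counts and at 0.00 in uniquely mapped pairs. RN7SL4P therefore followed RN7SL1 and RN7SL3 in being low in counts and at the median in uniquely mapped pairs, with most of its counts from multimapping reads. Of all uniquely mapped pairs on 7SL genes and copies, RN7SL1 held 90.1% and 89.0%.

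Only 7 of the 626 copies reached 100 counts over both libraries. Of these, 4 were at least 2-fold higher and 2 at least 2-fold lower than the median feature, against 26.7% and 25% of all features tested. RN7SL5P on chromosome 9 had 684 and 206 counts, at -0.28 from the median, but 109 and 38 uniquely mapped pairs, at 0.91, so its side of the median turned with the measure. RN7SL325P had 147 and 293 counts and RN7SL508P 66 and 170, at 2.44 and 2.80, while RN7SL850P had 174 and 0. In uniquely mapped pairs RN7SL325P had 2 in each library and RN7SL508P 7 and 9. The higher ratios of RN7SL325P and RN7SL508P in counts thus rest on almost no uniquely mapped pairs.

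On chromosome 1, 37 features that the authors' feature names call RN7SL or Metazoa_SRP held 60 counts in the vector library and 7 in SFB-Ku80. None reached 100 counts, and the most counted were RN7SL130P with 12 and 0, RN7SL242P with 11 and 0 and RN7SL559P with 9 and 0. Features with 1 exon entry and a length within the same limits outside the 7SL locus numbered 1130, of which 16 reached 100 counts. Of these 16, 7 were at least 2-fold higher and 6 at least 2-fold lower, against 26.7% and 25% of all features tested. Their median was at 0.21 from the median feature. In uniquely mapped pairs 4 of the 1130 reached 100, with a median of -0.69. After RN7SL4P the most counted were RN7SKP232, a pseudogene of 7SK RNA, with 5001 and 193 counts, at -3.24, and MT-ND4L, which encodes a subunit of respiratory complex I, with 1587 and 106, at -2.44. Features of this length thus lay on both sides of the median, as features in general did.

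**Figure D4:**
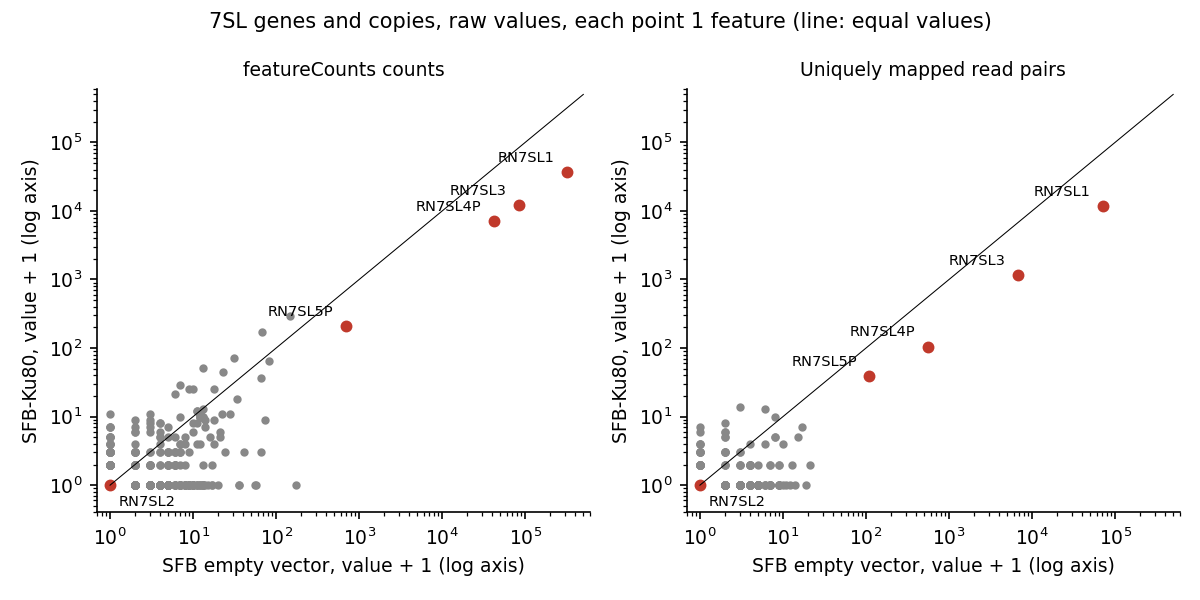
Value + 1 in SFB-Ku80 (vertical log axis) against SFB empty vector (horizontal log axis) for the 629 7SL genes and copies, 1 point each, for counts (left) and uniquely mapped pairs (right), not scaled for library size, with a line at equal values. RN7SL1, RN7SL3 and RN7SL4P stand apart with 320549, 85035 and 41757 counts in SFB empty vector, while RN7SL2 sits at 0 and the grey copies stay low.

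The genes of the particle's proteins did not share 1 direction, nor did features in general. Of 8 genes of the particle and its receptor, 6 could be named, 5 of which reached 100 counts, with a median of -0.58. Among these 5, 1 was at least 2-fold higher and 1 at least 2-fold lower than the median feature, against 26.7% and 25% of all features tested. SRP9, whose product binds the Alu domain of 7SL RNA together with SRP14, had 2474 and 160 counts, at -2.50, and 1038 and 60 uniquely mapped pairs, at -1.67. SRP68, which with SRP72 binds the other domain of the RNA, had 899 and 744 counts, at 1.18, and 471 and 432 uniquely mapped pairs, at 2.31. SRP9 and SRP68 thus lay on opposite sides of the median in both measures.

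The other protein genes were closer to the median. SRP72 had 776 and 190 counts, at -0.58, and 369 and 80 uniquely mapped pairs, at 0.23, so its side of the median turned. SRP19, whose product helps to assemble the particle, had 333 and 89 counts, at -0.45, and was at -0.41 in uniquely mapped pairs. SRPRB, a subunit of the receptor, had 495 and 95 counts, at -0.92, and was at -0.14 in uniquely mapped pairs. SRP14 had 9 and 0 counts, and in the vector library 7 pairs in the first stranded column and 1 in the second. These are reads of RNA on the genes, with strand ignored in the counts, so they say nothing of the proteins.

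Other small RNAs made by RNA polymerase III gave little to compare. RN7SK, RPPH1 and VTRNA2-1, as well as TERC, the telomerase RNA that RNA polymerase II makes, were listed at 0 in both libraries, and 99.1% to 100% of their length was overlapped by exons of other features, as for RN7SL2. The Y RNA gene RNY1 had 87 and 12 counts, RNY3 had 8 and 2, and RNY4 had 0 and 6. None reached 100 counts, so no ratio is given for them.

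The size of the RN7SL1 difference depended on the total it was scaled to. Scaled to counts outside the 45S units and outside the 2 top features of SFB-Ku80, the RN7SL1 share was 1.71% and 0.588%, 2.91-fold lower (2.88 to 2.94), against 1.67% and 0.254%, 6.56-fold lower (6.49 to 6.63), with those features kept. As uniquely mapped pairs over all read pairs it was 0.242% and 0.0531%, 4.55-fold lower (4.46 to 4.64), with 21.5% of the read pairs unmapped in the vector library and 47.1% in SFB-Ku80. Each of these shares was lower in SFB-Ku80.

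**Figure D5:**
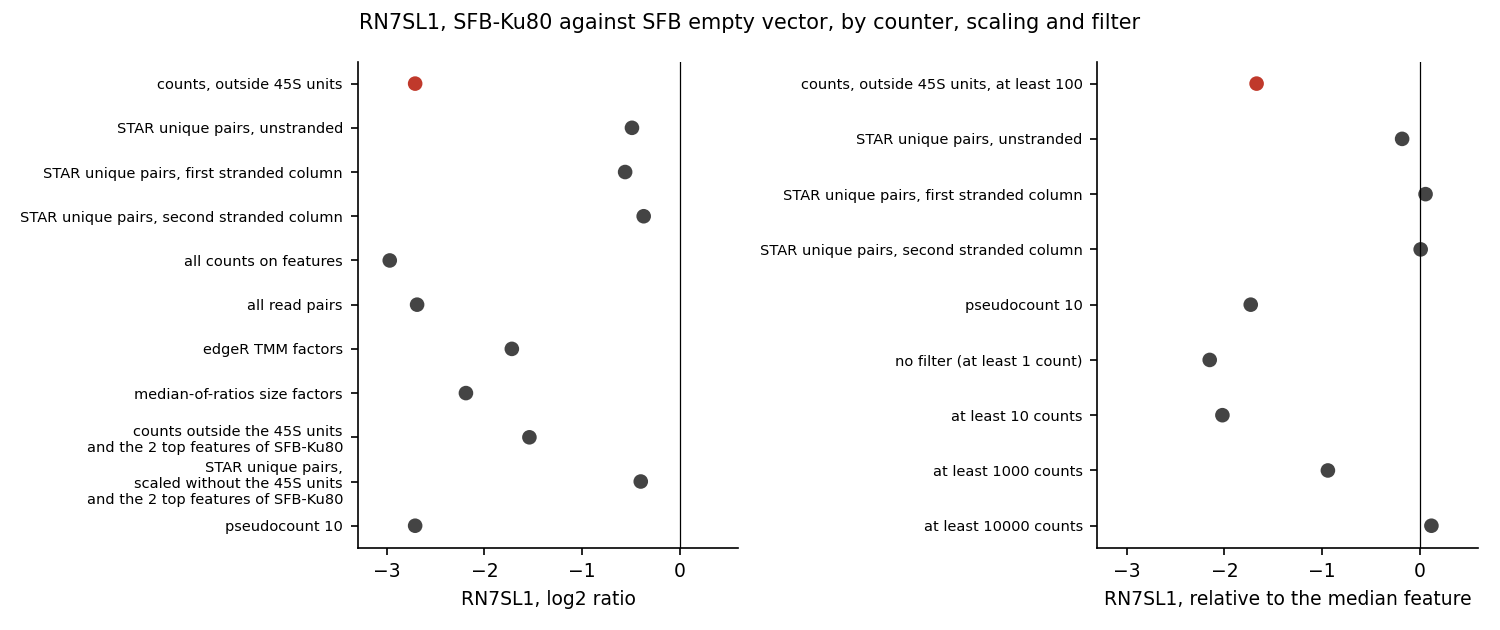
Log2 ratio of RN7SL1 (left, horizontal axis) and the same relative to the median feature (right, horizontal axis) under each counter, scaling, filter and pseudocount, 1 point each, with the values used in the text in red. On the left the points run from -2.97 to -0.37, all below 0, and on the right from -2.15 to 0.12, on both sides of 0.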

How the data were processed

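PAR-CLIP libraries of HEK293T cells with SFB empty vector or SFB-Ku80 (1 each) were compared. The authors aligned read pairs to CHM13 v1.1 with STAR 2.7.6a and deposited raw counts per feature from featureCounts 2.0.2 (versions per the submitters' processing notes), which counted multimapping reads at each place, ignored strand and left out reads on several features. They also deposited STAR counts of uniquely mapped pairs, unstranded and by strand. The rDNA bin signal was not used here.

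Shares have 95% Wilson intervals and ratios of shares log-normal ones. Log2 ratios used a pseudocount of 1, the total outside 219 45S units, and the median feature with at least 100 counts over both libraries. With 1 library per group no test was run. The code was tested on simulated data. Python 3.11.15, pandas 2.3.3, scipy 1.17.1 and edgeR 4.0.16 (TMM factors) were used.

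The count tables hold no names. Order and length of neighbours (within 0.5%, or 10% for a single candidate) paired 20363 of 63494 features with RefSeq symbols on GRCh38.p14. Of 686 pairings comparable with the authors' feature names 669 had the same name, as had 28 of 28 RN7SL features. The authors' names were at hand only in part, so the remaining pairings could not be checked in this way. No coordinates were carried over.

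The members and lists were chosen with earlier results of these data known. Named are the members, features within 5000 bases of one, the features next to RN7SL1 in rank, the 3 nearest in log2 ratio with at least 10000 counts, the 3 most counted of each list, and the listed protein genes and RNAs. RN7SL5P, RN7SL325P, RN7SL508P and RN7SL850P, XRCC5 and the 2 top features were added after their values were seen.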

Additional observations from a re-analysis of the deposited data

How the results depend on the processing

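No paired analysis was possible because each group has 1 library and no result comes from a test. For the same reason no library could be left out. Of the results computed again, 9 stayed within the limits set for them, 44 moved beyond them and 7 changed sign. Those that moved include shares and numbers of features, which have no direction, and the limits were not equally wide for all results. The log2 ratio of RN7SL1 (-2.71) and of the 3 genes summed (-2.64) stayed below 0 throughout. They were -2.97 and -2.90 scaled to all counts, -2.69 and -2.62 to all read pairs, -1.72 and -1.64 with TMM factors, -2.19 and -2.12 with median-of-ratios size factors, and -1.54 and -1.47 without the 2 top features of SFB-Ku80. In uniquely mapped pairs they were -0.49 and -0.48, in the first stranded column -0.56 and -0.57, in the second -0.37 and -0.36, and without the 2 top features -0.40 and -0.39. Relative to the median feature (-1.67 and -1.60) they were -0.18 and -0.17 in uniquely mapped pairs, but 0.06 and 0.05 in the first and 0.01 and 0.01 in the second stranded column. They were -1.73 and -1.66 with a pseudocount of 10, -2.15 and -2.08 with no filter, -2.02 and -1.95 with at least 10 counts, -0.94 and -0.87 with at least 1000, and 0.12 and 0.19 with at least 10000. By construction a filter moves only the median feature.

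The share of the 3 genes in SFB empty vector and SFB-Ku80 (2.05% and 0.275%) was 1.30% and 0.896% in uniquely mapped pairs, 2.11% and 0.339% outside the 45S units, 2.16% and 0.782% also without the 2 top features, and 0.264% and 0.0583% as uniquely mapped pairs over all read pairs. Features at least 2-fold higher and lower (4664 and 4377) numbered 2304 and 1934 in uniquely mapped pairs, 1113 and 917 with at least 1000 counts, 8301 and 8824 with at least 10, and 1206 and 8933 with no centring on the median. The median log2 ratio of the 7SL copies went from 0.06 to -0.64 with at least 10 counts. Apart from the filters and the centring, the cause of these moves was not tested. The scalings without the 2 top features, the filters of 10 and 10000 for the relative value, and the list of copies were chosen after seeing the data.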
